A study of Mus musculus with 6 samples.

Results

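The Slc12 family comprises the electroneutral cation-chloride cotransporters, and 8 of its genes (Slc12a1, Slc12a2, Slc12a3, Slc12a4, Slc12a5, Slc12a7, Slc12a8 and Slc12a9) were taken by symbol from the 55385 genes of the deposited tables. The members were chosen by name, but the family itself was selected on its Slc12a2 values in these tables, which were already known to be higher in the treated tumors. The differences of its genes between control and treatment are therefore given as a description, with no test. RNA came from 3 control libraries and 3 libraries of DMHCA-treated NeuT/ATTAC female mice. These mice carry an activated rat ErbB2 transgene driven by MMTV, a promoter active in mammary epithelium, together with a caspase-8 fusion under the fat-directed FABP4 promoter. AP20187 dimerizes the caspase and ablates part of the mammary fat. As the study describes the groups, both received it by repeated injection at 0.4 mg/kg, starting at an age of 6 weeks. The label of the controls names AP20187 and vehicle in 1 phrase and could also mean vehicle alone. DMHCA is a sterol that activates the nuclear receptor LXR, and treated mice ate it from an age of 8 weeks at 0.05% of the diet, or 100 mg/kg. The labels name the tissue as fibrosis of the mammary gland, whereas the study describes tumors.

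Members of this family move chloride across the plasma membrane together with sodium, potassium or both, without net charge. The sodium-driven members import chloride and the potassium-chloride members export it, so that together they set cell volume and the chloride gradient. In secretory epithelia Slc12a2, also called NKCC1, loads chloride through the basolateral membrane for exit through apical channels. The WNK kinases and their targets SPAK and OSR1 phosphorylate both branches, which activates the importers and inhibits the exporters.

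Total expected counts, the reads that RSEM assigned to genes, lay between 46358838 and 63420729 per library. DMHCA libraries 1 and 3 differed by a coefficient of variation of 0.0327 after sampling noise was set aside, against 0.376 to 0.579 in the other pairs within a group. They were therefore summed and counted as 1 sample, which left 3 control samples and 2 DMHCA samples, and p-values measure only the spread between these samples. By edgeR's quasi-likelihood test, 0 of 19427 genes (0%) passed at an adjusted p of 0.05. Without adjustment, 1478 genes (7.61%) had a p under 0.05, of which 685 (3.53%) were higher and 793 (4.08%) lower after DMHCA. Markers of luminal epithelium were abundant, with a summed level of 3668 to 4538 TPM (transcript abundance corrected for length and depth) over 8 genes in control libraries and 5202 to 5330 TPM in DMHCA libraries. Control library 3 stood apart, with 269 TPM of 5 B cell markers and 919 TPM of 6 adipocyte markers. The other controls held 1.09 to 31.5 TPM and 124 to 205 TPM of these lists, and the DMHCA libraries 1.71 to 2.35 TPM and 68.9 to 69.1 TPM. In whole tissue, fewer cells of a type and less RNA per cell cannot be told apart.

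Compared per transcript length, Slc12a2 was the most abundant of the 8 genes in every library. Its mean over the 5 samples was 175 TPM. The potassium-chloride cotransporter gene Slc12a7 followed with 16.6 TPM, Slc12a9 with 8.54 TPM, Slc12a4 with 3.80 TPM and Slc12a8 with 2.35 TPM. The remaining genes were near the lower limit of detection, with means of 0.287 TPM for Slc12a5, 0.284 TPM for Slc12a3 and 0.011 TPM for Slc12a1. The ranges over the 6 libraries did not overlap between Slc12a2 and Slc12a7, between Slc12a7 and Slc12a9, or between Slc12a9 and Slc12a4. Slc12a4 (3.03 to 4.30 TPM) and Slc12a8 (1.04 to 4.19 TPM) overlapped, as did Slc12a5 and Slc12a3.

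**Figure D1:**
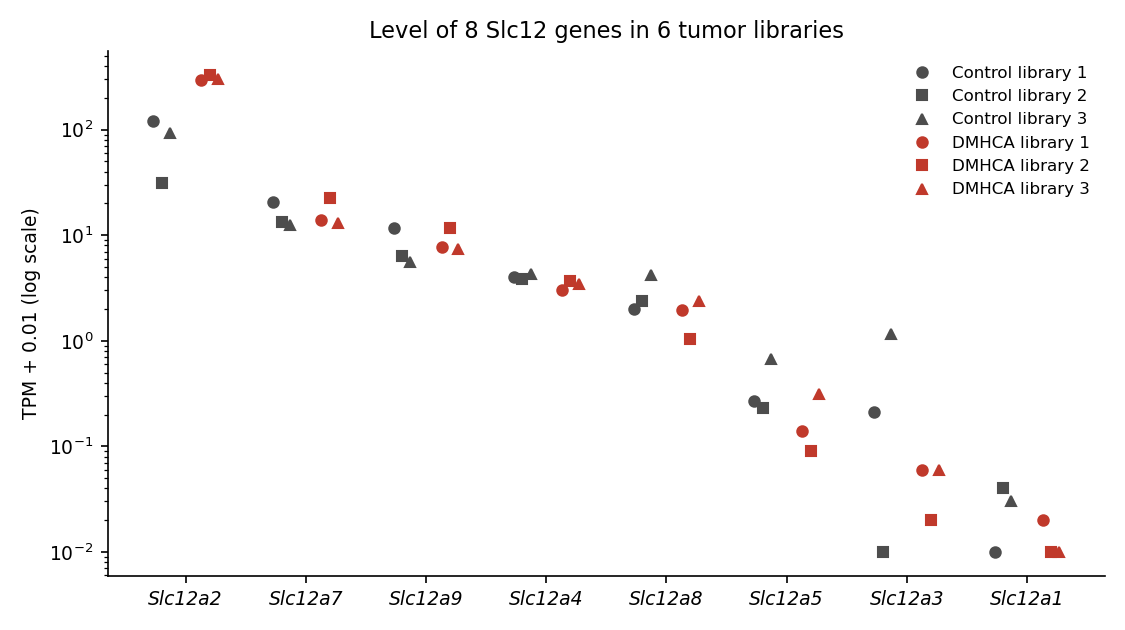
Level of each Slc12 gene (TPM + 0.01, log axis) in the 6 libraries, with control libraries in grey, DMHCA libraries in red and a symbol for each library number. The 3 DMHCA libraries of Slc12a2 lie at 294 to 333 TPM, above the control libraries at 31.1 to 120 TPM, while the groups of Slc12a7 and Slc12a9 overlap.

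Slc12a2 (ENSMUSG00000024597, chromosome 18 of GRCm38, 57878678 to 57946821, plus strand) encodes the sodium-potassium-chloride importer NKCC1. Control libraries 1, 2 and 3 held 120, 31.1 and 93.8 TPM, and DMHCA libraries 1, 2 and 3 held 294, 333 and 303 TPM. Every DMHCA library was above every control library, and control library 2 was the lowest of the 6. In normalized counts, which were TMM-scaled to the mean library, the control libraries held 29284, 10174 and 24534. The DMHCA samples were close to each other, at 75922 for library 2 and 74734 for the sum of libraries 1 and 3. On this scale the spread was wider among the controls (21331 ± 9950 normalized counts, SD, n = 3) than after DMHCA (75328 ± 840, SD, n = 2). An SD of 2 samples is a poor estimate of spread, and in TPM the SDs were 45.8 in controls and 24.0 after DMHCA. The DMHCA mean was 3.53 times the control mean in the fit, a log2 fold change of 1.82 (standard error, SE, 0.48). Of the 19427 genes tested, 206 (1.06%) had a larger log2 fold change in this direction.

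By level, Slc12a2 ranked 8, 31 and 7 among 359 solute carrier genes in control libraries 1, 2 and 3, and 4, 4 and 3 in DMHCA libraries 1, 2 and 3. Its share of the summed TPM of the 8 genes was 75.6%, 54.3% and 76.7% in the controls and 91.6%, 89.5% and 91.9% after DMHCA. The sum of the other 7 genes was 26.2 to 38.9 TPM in the controls and 26.7 to 38.9 TPM after DMHCA, so these ranges coincided nearly in full.

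**Figure D2:**
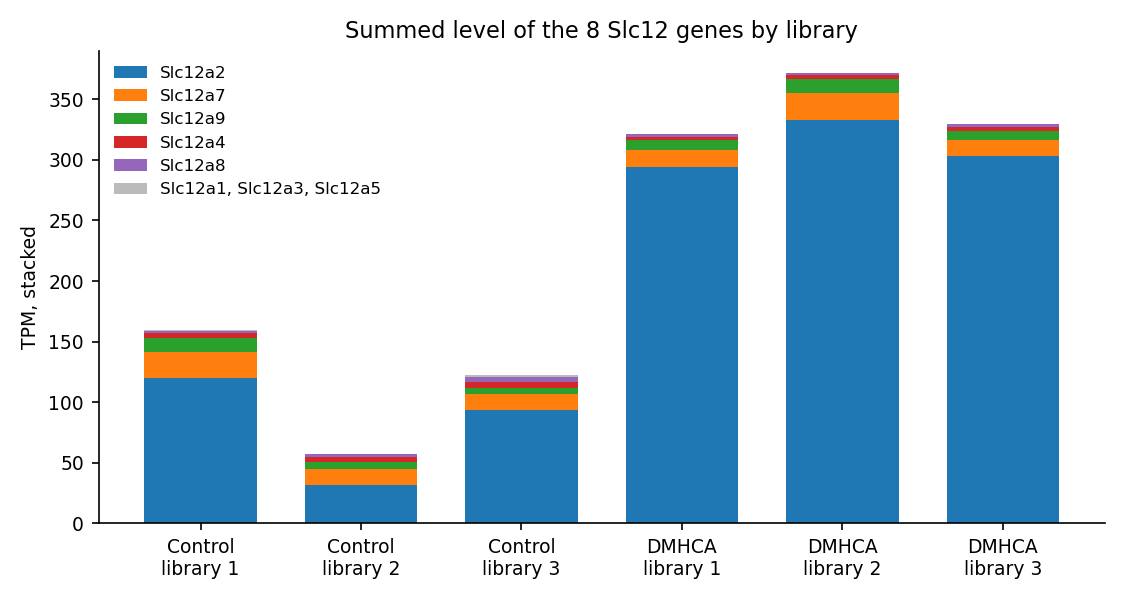
Level of the 8 Slc12 genes in each library, stacked in TPM. The stacks reach 57.3 to 159 TPM in the control libraries and 321 to 372 TPM in the DMHCA libraries, and Slc12a2 makes up the greater part of each.

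The luminal epithelial markers also had higher summed levels in the DMHCA libraries. Of these 8 genes, 4 had a log2 fold change above 0 and 1 was higher without overlap between the groups, as 13.8% of all genes tested were. Expressed per 1000 TPM of these markers, Slc12a2 was 26.5, 7.64 and 25.6 TPM in control libraries 1, 2 and 3 and 55.8, 64.0 and 56.9 TPM in DMHCA libraries 1, 2 and 3. The means were 19.9 ± 10.6 (SD, n = 3) and 60.1 ± 5.39 (SD, n = 2). The difference of the mean log2 values was 1.79 on this scale, against 2.16 for log2(TPM + 0.1) without it, and the part of luminal content in the Slc12a2 difference was not tested. All 6 proliferation markers had a log2 fold change above 0, and 3 of them were higher without overlap, again against 13.8% of all genes. Their summed level was 162 to 370 TPM in control libraries and 427 to 514 TPM in DMHCA libraries, and the part of proliferation in the Slc12a2 difference was not tested. The 6 markers of neurons and Schwann cells summed to 148 to 318 TPM in control libraries and 348 to 382 TPM in DMHCA libraries. Of the 5 tested, 1 had a log2 fold change above 0, and their part was not tested either.

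The patterns most like that of Slc12a2 over the 5 samples were sought among 8824 other genes with a mean of at least 10 TPM, by the root mean square difference of log2 values that were centered and divided by their SD. The nearest was the imprinted noncoding RNA gene H19, with a difference of 0.0647, where the median over all genes compared was 0.829. Sbk1 (0.0753), Arhgap29 (0.0894), Plpp3 (0.115) and Irgq (0.125) came next. H19 was at 5.42 to 10.4 TPM in control libraries and 12.6 to 19.4 TPM in DMHCA libraries, with a log2 fold change of 0.77 (SE 0.35). Arhgap29, which encodes a GTPase-activating protein, was at 6.08 to 19.4 TPM in controls and 43.9 to 50.5 TPM after DMHCA, with a log2 fold change of 1.48 (SE 0.40). These genes were picked for their likeness to Slc12a2, so the shared order of samples follows from the choice.

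The other sodium-driven cotransporters are best known from the kidney. Slc12a1 (ENSMUSG00000027202, chromosome 2, 125152505 to 125230002, plus strand), the loop diuretic-sensitive NKCC2 of the thick ascending limb, had 0, 8 and 1 expected counts in control libraries 1, 2 and 3, against 1, 0 and 0 with DMHCA. It did not pass the filter on low counts and was not tested, so 7 of the 8 genes were in the fit. Slc12a3 (ENSMUSG00000031766, chromosome 8, 94329201 to 94366214, plus strand) encodes the thiazide-sensitive sodium-chloride cotransporter of the distal tubule. It had 14, 0 and 130 expected counts in control libraries 1, 2 and 3, against 6, 1 and 6 with DMHCA. Control library 3 held most of its reads, and the groups overlapped because control library 2 had none. The log2 fold change of Slc12a3 was -3.72, with a standard error of 2.07. It was -1.39 on the log2(TPM + 0.1) scale and -3.01 without DMHCA library 2, and the gene no longer passed the filter without control library 1 or 3. In the same order of libraries the summed B cell markers were at 31.5, 1.09 and 269 TPM in controls and 2.35, 1.73 and 1.71 TPM after DMHCA, and the summed T cell markers at 16.1, 1.40 and 147 TPM and 7.54, 4.03 and 7.17 TPM. The summed adipocyte, fibroblast and myeloid markers were also highest in control library 3, and the part of these cell types in the Slc12a3 values was not tested.

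The potassium-chloride cotransporters carry chloride outward. Slc12a7 (ENSMUSG00000017756, chromosome 13, 73733094 to 73816754, plus strand), or KCC4, was at 20.8, 13.4 and 12.6 TPM in control libraries 1, 2 and 3 and at 14.0, 22.5 and 13.2 TPM in DMHCA libraries 1, 2 and 3. The groups overlapped, and 1 library of each group was high. Its mean was 2855 ± 502 normalized counts in controls (SD, n = 3) and 2987 ± 1064 with treatment (SD, n = 2). The log2 fold change of 0.06 (SE 0.32) was -0.31 without DMHCA library 2 and -0.08 without control library 3. The genes nearest to it in pattern were Samd14 (difference 0.0318), the sulfate transporter gene Slc26a2 (0.0507) and the noncoding RNA gene Airn (0.0508), against a median of 0.647.

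Slc12a4 (ENSMUSG00000017765, chromosome 8, 105943590 to 105966097, minus strand), the broadly expressed KCC1, held 456, 623 and 549 normalized counts in control libraries 1, 2 and 3. The DMHCA samples were at 391 (library 2) and 384 (libraries 1 and 3 together). Both DMHCA samples lay below all controls, by less than the spread among the controls in the case of control library 1. Of the adipocyte markers 6 of 6, and of the myeloid markers 3 of 6, were also lower without overlap, against 12.2% of all genes tested, and their part in the Slc12a4 values was not tested. The means were 543 ± 83.7 (SD, n = 3) and 387 ± 4.34 (SD, n = 2), a log2 fold change of -0.49 (SE 0.37). Its exons overlap those of the antisense gene Gm16156, and whether strand was used in counting is not given in the sources used here. Slc12a5 (ENSMUSG00000017740, chromosome 2, 164960802 to 164999731, plus strand), the neuronal KCC2, had 22, 12 and 52 expected counts in the controls, against 18, 11 and 27 in the DMHCA libraries. Its log2 fold change of -0.79 (SE 0.84) was 0.07 without control library 3, the highest library. The sum of Slc12a4, Slc12a5 and Slc12a7 was 17.4 to 25.0 TPM in controls and 16.9 to 26.2 TPM after DMHCA. The ratio of Slc12a2 to this sum was 4.80, 1.79 and 5.35 in control libraries 1, 2 and 3 and 17.2, 12.7 and 18.0 in DMHCA libraries 1, 2 and 3. Every DMHCA library was above every control library in this ratio.

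Slc12a8 and Slc12a9 are the distant members of the family. Slc12a8 (ENSMUSG00000035506, chromosome 16, 33517328 to 33664135, plus strand), which has been described as a carrier of nicotinamide mononucleotide, held 102, 128 and 133 normalized counts in control libraries 1, 2 and 3. DMHCA library 2 was far lower at 34.4, and DMHCA libraries 1 and 3 together were within the control range at 117. The log2 fold change of -0.67 (SE 0.65) was 0.00 without DMHCA library 2. Slc12a9 (ENSMUSG00000037344, chromosome 5, 137314558 to 137333597, minus strand) encodes a protein reported to interact with NKCC1. It was at 11.6, 6.35 and 5.55 TPM in control libraries and at 7.75, 11.6 and 7.42 TPM in DMHCA libraries, and the groups overlapped. Its log2 fold change was 0.10 (SE 0.36), with -0.11 without control library 3 and -0.08 without DMHCA library 2.

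Of the 7 genes in the fit, Slc12a2 alone was higher without overlap between the groups, where 13.8% of all genes tested were, and Slc12a4 alone was lower without overlap, where 12.2% of all genes were. The median log2 fold change over all genes tested was -0.03.

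**Figure D3:**
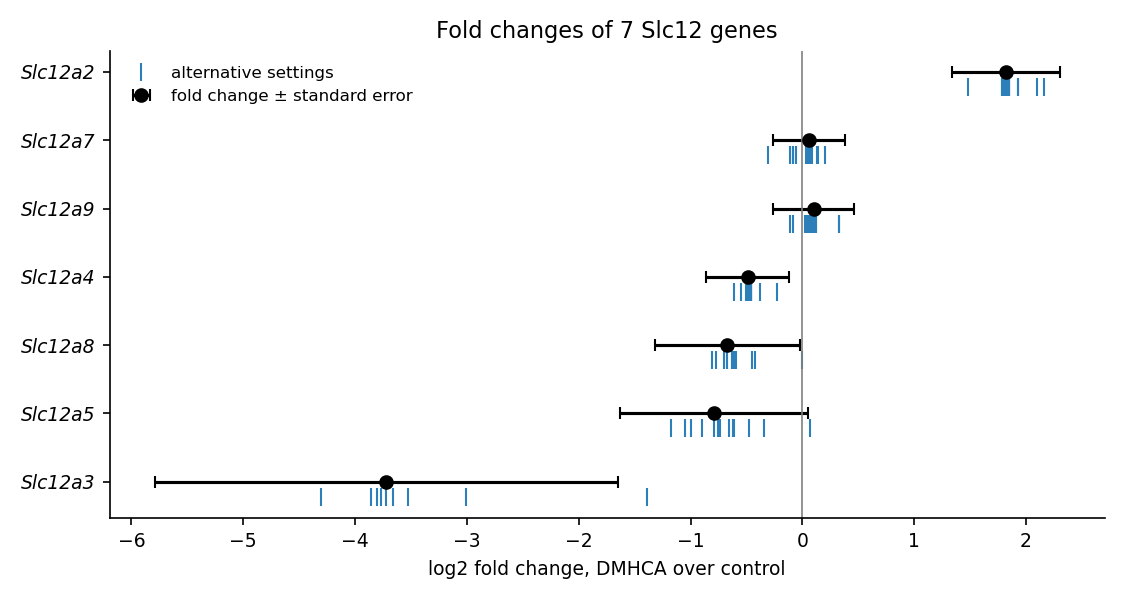
Log2 fold change of DMHCA over control for the 7 Slc12 genes in the fit, with standard errors as bars and the values under the alternative settings as ticks below each point. Slc12a2 stays between 1.48 and 2.16 in all settings shown, whereas the values of Slc12a7, Slc12a9 and Slc12a5 reach both sides of 0.

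RSEM's length of a gene, the mean length of its transcripts weighted by their abundance, reports which transcripts were used and not how many, and it played no part in the choice of genes. It was compared for the 5 genes with a mean of at least 1 TPM. Slc12a2, with 2 annotated transcripts in the table, had a length of 6515, 6519 and 6518 bases in control libraries 1, 2 and 3 and 6517 bases in each DMHCA library. These values were within 4 bases of each other, and the means differed by -0.0634 bases (p = 1.0, two-sided exact permutation test). Lengths of Slc12a7, with 11 transcripts, varied more, from 4183 to 4660 bases in controls and from 4309 to 4797 bases after DMHCA (p = 0.8, exact permutation test). Slc12a8, with 7 transcripts and few reads, ranged from 941 to 1513 bases in controls and from 1087 to 1692 bases after DMHCA (p = 0.8, exact permutation test). For Slc12a4 and Slc12a9 the means were 3250 ± 111 and 3229 ± 74 bases in controls (SD, n = 3) and 3171 ± 48 and 3223 ± 97 bases after DMHCA (SD, n = 2), with p = 0.6 and 0.8 by the exact permutation test. The adjusted p over these 5 comparisons was 1.0 for each gene. With 3 against 2 samples the smallest p that this test can give is 0.2, so a difference in transcript use could not have passed the 0.05 level.

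The genes that work with the cotransporters were followed in 6 lists drawn up by function, with 88 genes of which 78 were tested. By edgeR's quasi-likelihood test 0 of the 78 had an adjusted p under 0.05. An unadjusted p under 0.05 was found for 4 higher and 5 lower genes (11.5%, against 3.53% higher and 4.08% lower, or 7.61%, of all genes). With DESeq2, 3 of these genes (Ttyh3, Cftr and Lrrc8b) passed the adjusted threshold when all 6 libraries were entered singly, and 0 passed on the 5 samples. The groups did not overlap for 11 higher and 10 lower genes (26.9%, against 25.9% of all genes tested).

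The kinases that control the cotransporters had log2 fold changes on both sides of 0. Of 13 listed genes all 13 were tested, 0 had an unadjusted p under 0.05 and their median log2 fold change was -0.01. Stk39, which encodes SPAK, was the most abundant, at 149, 169 and 93.5 TPM in control libraries 1, 2 and 3 and 204, 149 and 198 TPM in DMHCA libraries 1, 2 and 3, and the groups overlapped (log2 fold change 0.13, SE 0.42). Its relative Oxsr1, which encodes OSR1, had a lower level of 10.9 to 15.9 TPM over the 6 libraries and a log2 fold change of -0.27 (SE 0.29). Wnk1 was the most abundant WNK kinase gene, with 43.6 to 83.8 TPM and a log2 fold change of -0.03 (SE 0.28). For Wnk2 the log2 fold change was -0.01 (SE 0.45), and Wnk3 was barely detected at 0.06 to 0.17 TPM (log2 fold change 0.18, SE 0.59). Wnk4 differed between the DMHCA samples, with 67.5 TPM in DMHCA library 2 and 8.06 and 5.65 TPM in DMHCA libraries 1 and 3, against 28.7, 30.5 and 7.43 TPM in control libraries 1, 2 and 3. The MO25 scaffold genes Cab39 and Cab39l had log2 fold changes of -0.15 (SE 0.26) and -0.21 (SE 0.25). Among genes of WNK turnover, Klhl2 had a log2 fold change of 0.09, Cul3 of 0.10 and Klhl3 of -0.56, with standard errors of 0.27, 0.30 and 0.47. Klhl3 was the only gene of this list whose groups did not overlap, at 0.72 to 0.89 TPM in controls and 0.48 to 0.71 TPM after DMHCA. The ubiquitin ligase gene Nedd4l and the kinase gene Sgk1 had log2 fold changes of -0.15 (SE 0.26) and 0.03 (SE 0.39).

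The sodium gradient that drives Slc12a2 is made by the Na,K-ATPase. The beta subunit gene Atp1b1 overlapped between groups, with 86.6 to 265 TPM in controls and 130 to 237 TPM after DMHCA. The regulator gene Fxyd3 was the most abundant of the list, at 1018 to 1652 TPM in controls and 858 to 1355 TPM after DMHCA, and also overlapped. In this list 13 of 14 genes were tested, the median log2 fold change was -0.41 and 2 genes had an unadjusted p under 0.05, both lower. They were Fxyd5, at 94.0 to 148 TPM in controls and 49.2 to 65.5 TPM after DMHCA, and Fxyd6, at 68.2 to 100 TPM and 21.3 to 58.3 TPM, named after their values were seen.

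Chloride leaves epithelial cells through channels, but not all genes of the chloride channel list encode exit channels of the plasma membrane. Of the 20 listed genes, 16 had a log2 fold change above 0. Their median was 0.28, against -0.03 over all genes tested. Ano1, the calcium-activated chloride channel, had by far the highest mean level, although Ano10 came close in control library 2 at 71.8 TPM. Ano1 was at 347, 76.6 and 194 TPM in control libraries 1, 2 and 3 and 644, 357 and 666 TPM in DMHCA libraries 1, 2 and 3. Control library 2 was again the lowest, and the DMHCA libraries were higher in TPM. In normalized counts, however, DMHCA library 2 (36202) lay below control library 1 (37906), and the log2 fold change was 1.10 (SE 0.53). Ano10 and the volume-regulated channel gene Lrrc8d overlapped between groups, with log2 fold changes of 0.19 (SE 0.34) and 0.06 (SE 0.27). An unadjusted p under 0.05 was found for Lrrc8b, Ttyh3 and Cftr, named after their values were seen. Lrrc8b, a further subunit of the volume-regulated channel, was at 2.48 to 4.80 TPM in controls and 8.02 to 12.3 TPM after DMHCA, a log2 fold change of 1.22 (SE 0.29). Ttyh3 was at 9.48 to 21.9 TPM in controls and 32.6 to 39.6 TPM after DMHCA, a log2 fold change of 1.04 (SE 0.31). Cftr, the channel gene mutated in cystic fibrosis, was lower and never reached more than 0.21 TPM. The groups did not overlap for 6 higher and 2 lower genes of the list, or 40.0% of it, where 13.8% of all genes tested were higher, 12.2% lower and 25.9% either without overlap.

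Potassium that enters through Slc12a2 is recycled by potassium channels. Kcnn4, an intermediate-conductance channel of secretory cells, was at 541, 206 and 285 TPM in control libraries 1, 2 and 3 and at 848, 731 and 872 TPM in DMHCA libraries 1, 2 and 3. The groups did not overlap, control library 2 was the lowest, and the log2 fold change was 1.06 (SE 0.40, unadjusted p = 0.0344 and adjusted p = 0.644 by edgeR). Kcnk1 did not overlap either, at 63.3 to 94.4 TPM in controls and 147 to 185 TPM after DMHCA (log2 fold change 0.74, SE 0.32). Kcnk5 was split within the treated group, at 35.6 TPM in DMHCA library 2 and 89.7 and 89.9 TPM in DMHCA libraries 1 and 3, and overlapped the controls. Kcnn4 was the 1 gene with an unadjusted p under 0.05 among the 10 of 12 potassium channel genes tested, and the median of the list was 0.24.

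Among the anion and proton exchangers 14 of 19 genes were tested, with a median log2 fold change of 0.10. The chloride-bicarbonate exchanger gene Slc4a2 was the most abundant, at 26.5 to 39.8 TPM in controls and 39.5 to 49.8 TPM after DMHCA, with a log2 fold change of 0.28 (SE 0.29). Slc26a2 had a log2 fold change of 0.41 (SE 0.41), and the groups of both genes overlapped. The sodium-proton exchanger gene Slc9a8 was the 1 gene with an unadjusted p under 0.05, at 9.45 to 16.5 TPM in controls, 48.2 TPM in DMHCA library 2 and 21.0 and 20.3 TPM in DMHCA libraries 1 and 3. Of 10 aquaporin genes 8 were tested. The apical water channel gene Aqp5 had the highest mean level of any gene in the 6 lists. It was at 1880, 1324 and 788 TPM in control libraries 1, 2 and 3. DMHCA library 2 was within the control range at 1049 TPM and DMHCA libraries 1 and 3 were above it at 3182 and 3239 TPM, so that the log2 fold change of 0.52 had a standard error of 0.61. Aqp1, at 17.1 to 31.3 TPM in controls and 27.7 to 31.6 TPM after DMHCA, and Aqp11 overlapped between groups. The median of the aquaporins was -1.26, and the 2 genes with an unadjusted p under 0.05, Aqp4 and Aqp9, were lower and stayed under 1 TPM in all libraries.

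**Figure D4:**
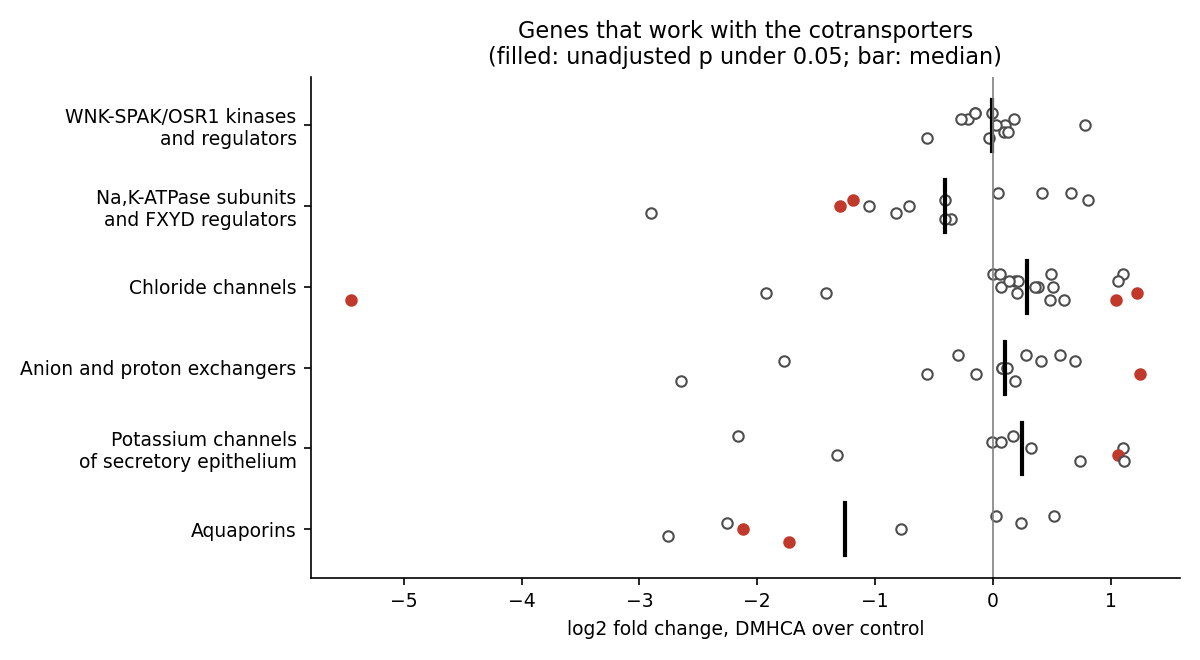
Log2 fold change of DMHCA over control for the 78 tested genes of the 6 functional lists, 1 point per gene, with a bar at the median of each list and filled points for an unadjusted p under 0.05. The kinases and their regulators have a median of -0.01 and reach from -0.56 (Klhl3) to 0.78 (Wnk4), and the chloride channels have a median of 0.28.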

How the data were processed

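Per the labels and the methods of the study, the authors trimmed adapters with Cutadapt 2.9 and counted reads on mm10 (GRCm38) with Bowtie2 2.4.1 and RSEM 1.3.1. The deposited expected counts are unnormalized RSEM estimates of reads per gene, of which 19.6% to 23.5% in a library were fractional. The deposited TPM values add up to 1000000 in each library. RSEM's deposited length of each gene is in bases, and FPKM was not used.

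Expected counts were rounded, DMHCA libraries 1 and 3 were summed, and the resulting 3 control and 2 DMHCA samples entered edgeR 4.0.16 under R 4.3.3 (TMM, filterByExpr at count 10 and total 15, quasi-likelihood F-test, Benjamini-Hochberg adjustment over 19427 genes). The SE was obtained from the log2 fold change and the F statistic, as their quotient after taking the root of F. The threshold was 0.05. On simulated counts of this design the fit recovered the sizes of the changes put in, but the test called hardly any of the smallest of them, which were larger than the Slc12a2 difference, so a low number of calls is no sign that genes did not change. Alternatives were DESeq2 1.42.0, 6 libraries with and without a replicate block, other scalings, no filter, and each library left out. Lengths were compared with the permutation test of scipy 1.17.1. Positions are from GENCODE mouse release M21, also GRCm38. The genes and lists were chosen with earlier results of these data known. Named genes were the 8 Slc12 genes, the kinase list, the 3 genes of highest mean TPM in the other lists, and the nearest patterns, and some results under this rule are not reported here. Scaling relative to luminal markers was added after the data were seen.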

Additional observations from a re-analysis of the deposited data

How the results depend on the processing

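The log2 fold change of Slc12a2 stayed above 0 in all 14 alternatives run, between 1.48 and 2.10 as libraries were left out in turn and between 1.79 and 2.16 otherwise. It was lowest without control library 2 and highest on the log2(TPM + 0.1) scale. The sign changed in 5 of 13 alternatives for Slc12a7, in 2 for Slc12a9 and in 1 for Slc12a5. Slc12a4 was -0.23 on the TPM scale. Slc12a3 had no value in edgeR on the 6 libraries or without control library 1 or 3, where it did not pass the filter. Without DMHCA library 2 a lone DMHCA sample remained, and its spread was taken to be that of the controls.

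Over all genes, DESeq2 gave 244 genes with an adjusted p under 0.05 on the 5 samples and 846 on the 6 libraries, and edgeR without a filter on low counts gave 16. For the 6 functional lists, DESeq2 on the 6 libraries gave 3 genes. The cause of these differences was not tested. With each library left out edgeR gave 0 genes, and 918 to 1800 had an unadjusted p under 0.05. As libraries were left out, the difference in RSEM length of DMHCA from control ranged from -1.1 to 0.668 bases for Slc12a2, from -128 to 195 for Slc12a7, from -46.2 to 338 for Slc12a8 and from -47.0 to 62.8 for Slc12a9. For Slc12a4 it kept its sign, from -140.0 to -30.6 bases.

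Deviations from the group means correlated at -0.0468, 0.316 and 0.330 between same-numbered control and DMHCA libraries. Because DMHCA libraries 1 and 3 were nearly identical, these values cannot show whether the numbers pair the samples. With the replicate number as a block on the 6 libraries, edgeR gave 0 genes with an adjusted p under 0.05 and 3207 with an unadjusted p under 0.05, against 2912 without the block, and Slc12a2 had a log2 fold change of 1.93. Slc12a1, Slc12a3 and Slc12a5 had at most 130 expected counts in any library, and differences of their levels were not resolved with these samples. For Slc12a3 the control libraries alone spread from 0 to 130 expected counts.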
